A study of Mus musculus with 249 samples.

Results

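The antigen receptor loci are the regions in which lymphocytes assemble the genes of antibodies and T cell receptors, and 4 of them were examined here in embryonic stem cells. Every 40 kb window of the mm9 table that overlapped the coordinates of a locus was taken as a member. The immunoglobulin kappa light chain locus (Igk) held 81 windows at chr6:67480001-70720000. The immunoglobulin heavy chain locus (Igh) held 65 windows at chr12:114600001-117200000. The T cell receptor alpha locus (Tcra), which also carries the delta segments, held 51 windows at chr14:52880001-54920000, and the T cell receptor beta locus (Tcrb) held 18 windows at chr6:40800001-41520000. Together these were 215 of the 68162 listed windows, and each locus was compared with its flanks, the 75 windows (3 Mb) on either side.

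The data were multiplex-GAM libraries of 46C-ES, mouse embryonic stem cells of strain 129/Ola in which GFP is knocked in at Sox1. In genome architecture mapping (GAM), thin cryosections are cut through nuclei, nuclear profiles are laser microdissected into tubes, and the amplified DNA is sequenced, so that regions lying near each other in the nucleus tend to be found in the same tubes. All titles gave 4 profiles per tube. The paper counts fewer nuclear profiles per library on average, and reports that some cellular profiles miss the nucleus. The libraries came from 11 protocol experiments. Only the handling of the sections and of the amplification varied, and no genotype or drug was compared.

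The whole genome amplification (WGA) reagent volume test held protocols A, B and C (10, 11 and 10 libraries), and the proteinase K titration held 1 µl (5) and 2 µl (6). The test of freezing after incubation held frozen (10) and unfrozen tubes (11), and the early freezing test held tubes frozen early (12) and late (11). The PCR cycle test held 20, 23 and 25 cycles (4, 5 and 3), the kit test large (11) and small kits (12), and the cresyl violet test stained (16) and unstained profiles (10). The eosin (18), SYBR Gold (10) and propidium iodide (20) tests contributed unstained profiles, and the full collection 54 libraries. For proteinase K volume and SYBR Gold, the group follows the title, since the protocol text differed from it.

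All libraries were pooled, because each locus was compared with the flanks of the same library. The labels tie no library to a separate culture, so p-values measure the spread between libraries, which may be technical. Per library, 18.2% ± 7.69 (SD over all libraries) of the listed windows were positive, from 3.40% to 45.2%. The median autosomal window was positive in 49 libraries, and 3.52% of autosomal windows were never positive. Read counts are not part of the table, and the depth behind a call is therefore unknown. It holds DNA detection and no expression, so no marker could check the cell type. The mm9 genome is that of the C57BL/6J strain.

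An antigen receptor locus is an array of variable (V), joining (J) and constant (C) segments, with diversity (D) segments in the heavy, beta and delta chains. Developing lymphocytes join a V, where present a D, and a J segment with the RAG recombinase, which recognises a recombination signal beside each of these, made of a heptamer, a spacer and a nonamer. A segment with a short spacer joins to a segment with a long one. In lymphocyte precursors the arrays contract, which brings distant V segments near the D and J segments, whereas embryonic stem cells carry the arrays unrearranged.

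The annotation (GENCODE vM1) placed 99 V, 5 J and 1 C segments in the Igk windows, and 109 V, 21 D, 4 J and 1 C in the Igh windows. The Tcra windows held 108 V, 2 D, 61 J and 1 C, and the Tcrb windows 23 V, 2 D, 14 J and 2 C. The coordinates cut Igh short at both ends. The constant segments Gm900, Ighg, Ighg1 and AI324046 lay to its left, and the V segments Ighv1-83, Ighv1-84 and Ighv1-85 to its right.

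To show what the windows hold, exact copies of the heptamer CACAGTG followed by the nonamer ACAAAAACC after 12 or 23 bases were searched on both strands of mm9. A match lay in 46 of the 61816 autosomal windows (0.0744%). It lay in 24 of the 81 Igk windows (29.6%), 4 of the 65 Igh windows (6.15%), 5 of the 51 Tcra windows (9.80%) and 1 of the 18 Tcrb windows (5.56%). Of the 66 autosomal matches 54 lay in the 4 loci, 47 of them within 20 bases of an annotated segment. Most natural signals depart from these letters, so that a window without a match can still hold signals. The matches shown here, 5′ to 3′ with heptamer and nonamer in capitals, mark both ends of Igk, its repeated V families, and copies in Igh, Tcra and Tcrb.

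Igkv2-137, leftmost V segment of Igk, chr6:67506211-67506238, plus strand: CACAGTGatacagccctgaACAAAAACC

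Igkv4-86, V segment, chr6:68860377-68860404, minus strand: CACAGTGatacagactggaACAAAAACC

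Igkv3-1, V segment in the Igkc window, chr6:70654172-70654199, plus strand: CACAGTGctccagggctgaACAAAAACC

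Igkj1, J segment, chr6:70672517-70672555, minus strand: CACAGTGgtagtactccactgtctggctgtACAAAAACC

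Gm16782, D segment of Igh, chr12:114689034-114689061, minus strand: CACAGTGatatatccagcaACAAAAACC

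Trav16d-dv11, V segment of Tcra, chr14:53667497-53667535, plus strand: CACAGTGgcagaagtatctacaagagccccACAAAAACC

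Gm13896, V segment of Tcra, chr14:54363381-54363419, plus strand: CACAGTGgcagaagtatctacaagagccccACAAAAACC

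Trbv1, leftmost V segment of Tcrb, chr6:40841885-40841923, plus strand: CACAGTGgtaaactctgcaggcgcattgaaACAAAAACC

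Several of these were repeated letter for letter. The signal of Igkv4-86 occurred 13 times over 9 Igk windows, and that of Igkv3-1 occurred 8 times over 4 windows. The signal of Gm16782 stood beside 6 D segments in 1 window, chr12:114680001-114720000. The signal of Trav16d-dv11 was shared with Gm16837 and Gm13896, in windows positive in 34, 25 and 22 libraries. The same repetition was measured over whole windows as the unique share, the percentage of sampled 31-base words that occur once in mm9. It averaged 57.4% in Igk, 59.5% in Igh, 49.5% in Tcra and 72.6% in Tcrb. The flanks averaged 85.0%, 90.6%, 79.9% and 85.2% in the same order, and all autosomes 84.0%. GC content was also lower in each locus than in its flanks, at 38.8% against 42.3% in Igk, 39.5% against 46.1% in Igh, 41.7% against 43.1% in Tcra and 39.7% against 41.3% in Tcrb.

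The first comparison asked whether the loci were detected as often as the DNA around them. Igk and Tcra were detected less often than their flanks. For Igh and Tcrb the difference did not pass the test. When every window was set against autosomal windows in the same class of GC content and unique share, no locus passed the test. The differences of Igk, Igh and Tcrb turned positive. All unique shares under 50% fell in the lowest class, however. Other autosomal windows under 50% were positive in a median of 38 libraries, and those under 5% in a median of 0. The 9 Tcra windows under 5% were therefore not set against windows of like unique share. Among windows with a unique share of at least 80%, Tcra kept its call.

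The share of Igk windows positive ran from 0% through a median of 9.88% to 92.6%, and that of its flanks from 0% through 21.3% to 86.7%. A median depends on the length of the stretch, and the stretches as long as Igk to its left and right had medians of 16.0% and 19.8%. The ranges overlapped almost wholly, and the locus lay below its flanks in 141 libraries, above in 99 and level in 9. The mean was 19.8% ± 22.5 (SD) in Igk and 23.2% ± 19.9 in its flanks, a difference of -3.42 percentage points (SE 1.18, 95% interval -5.73 to -1.10). When the signs of the library differences were flipped at random (permutation test, two-sided), p was 0.00428 and 0.0219 after adjustment over Igk and the 715 autosomal intervals of the same length. Of those intervals, 10.3% were called lower than their flanks and 13.0% higher, and Igk stood at their percentile 6.43. The call was lost with flanks of 1.5 Mb (-2.80 points, adjusted p = 0.0532), without the cresyl violet test (-2.91, adjusted p = 0.0816) and without the early freezing test (-3.08, adjusted p = 0.0521). At like composition the difference was 0.475 points (SE 1.16, adjusted p = 0.878).

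The Tcra windows were positive at 0% in the lowest library, 3.92% in the median and 76.5% in the highest, against 0%, 12% and 96.7% in the longer flanks. The stretches of the same length beside it had medians of 3.92% to the left, as in Tcra, and 5.88% to the right. Tcra lay below its flanks in 146 libraries, above in 62 and level in 41. The mean was 12.3% ± 17.3 (SD) against 17.7% ± 19.1, a difference of -5.33 points (SE 0.883, 95% interval -7.06 to -3.60). The permutation p was 1e-05, the smallest the resamples can give, and the adjusted p was 0.000141. Among 1138 intervals of that length 9.67% were called lower, and Tcra stood at percentile 2.37. In the 14 Tcra and 91 flank windows with a unique share of at least 80%, the difference was -3.40 points (SE 1.09, adjusted p = 0.0282). At like composition, the 9 Tcra windows with a unique share under 5% were set against all windows under 50% of like GC content. Over all windows the composition difference was -2.16 (SE 0.871, adjusted p = 0.124). With only windows positive in at least 25 libraries it was -2.18 (adjusted p = 0.138), but this filter selects on detection itself and removed 12 of the 51 Tcra windows and 1 of the 150 flank windows.

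The Igh windows were positive at 0%, 12.3% and 93.8% in the lowest, median and highest library, and its longer flanks at 0%, 19.3% and 88.7%. The stretches of the same length had medians of 15.4% to the left and 7.69% to the right, on either side of that of Igh. The locus lay lower in 134 libraries and higher in 95. Its mean of 20.2% ± 23.1 (SD) stood against 21.6% ± 20.2, a difference of -1.38 points (SE 1.07, 95% interval -3.47 to 0.715) with an adjusted permutation p of 0.383. The flanks differed between the sides, at 23.0% to the left and 20.2% to the right, the latter level with the locus. Of 891 intervals of that length 10.8% were called lower and 13.2% higher. The Igh difference was -0.804 points with flanks of 1.5 Mb and -0.729 with windows positive in at least 25 libraries, a filter on detection itself. At like composition Igh lay 2.73 points above its flanks (SE 1.07), which did not pass the test either (adjusted p = 0.124).

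Tcrb, the shortest locus, was absent from the median library (0%) and complete in the highest (100%), while its longer flanks ran from 0% through 18.7% to 77.3%. The stretches of the same length on both sides had a median of 5.56%. It lay lower than the flanks in 156 libraries and higher in 70, counts that also depend on comparing 18 windows with 150. The mean was 19.6% ± 27.1 (SD) against 21.1% ± 18.2, a difference of -1.52 points (SE 1.22, 95% interval -3.92 to 0.874) with an adjusted permutation p of 0.417. The left flank was at 24.0% and the right at 18.3%, so that Tcrb lay between them. Of 3251 such intervals 8.74% were called lower and 9.87% higher. At like composition the difference was 0.367 points (SE 1.22, adjusted p = 0.910).

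**Figure D1:**
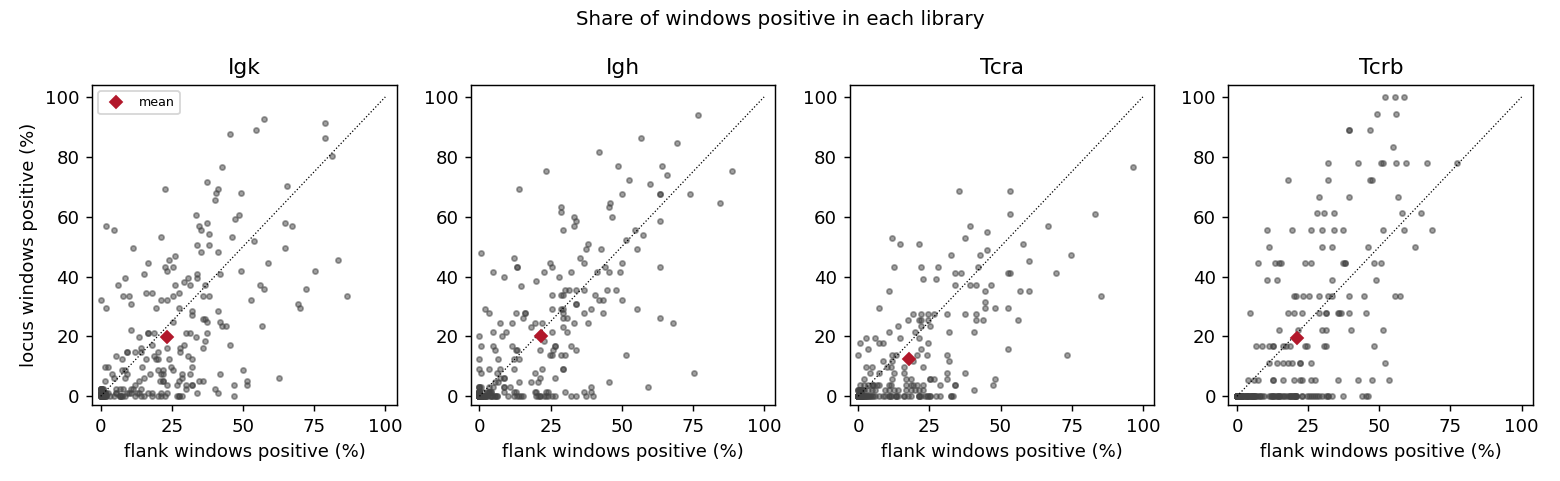
Share of locus windows positive (y axis, %) against share of flank windows positive (x axis, %) for each library, with the mean as a diamond and equality as a dotted line. Tcra lies below its flanks in 146 libraries and above in 62, and the points of each locus spread far around the line.

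The arrays and the stretches of the same length on their left and right were both rarely found whole. Igk had no positive window in 39 libraries (55 and 58 beside it), at least 75% of its windows in 7 and all of them in none, and the adjoining stretches had at least 75% in 10 and 5 libraries. Igh had no positive window in 65 libraries (61 and 75 beside it) and at least 75% in 8 (12 and 8 beside it). Tcra had none in 101 libraries (92 and 95 beside it) and at least 75% in 1 (5 and 10 beside it). Tcrb had none in 125 libraries, more than either stretch beside it, at least 75% in 17 (16 and 15 beside it) and all 18 windows in 3 (2 and 2 beside it). The longest unbroken run of positive windows was 2280 kb in Igk (1560 and 1640 kb in the stretches to its left and right), 1640 kb in Igh (2600 and 1360 kb) and 840 kb in Tcra (1280 and 1800 kb). In Tcrb and in both stretches beside it, it was the full 720 kb.

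Within the loci, single windows were tested against all windows within 3 Mb. Of the 213 member windows tested, 26 (12.2%) were called lower and 13 (6.10%) higher, against 2.61% lower and 3.31% higher of all 59639 autosomal windows tested. Igh and Tcra held most of these calls. Igk had 2 lower and 2 higher of 81, Igh 12 lower and 10 higher of 65, Tcra 11 lower and 1 higher of 49, and Tcrb 1 lower and none higher of 18. Among windows with a unique share under 50%, 20.5% of the members and 28.8% of other autosomal windows were called lower. Between 50% and 80%, the shares called lower were 7.78% and 3.50%.

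The 10 least detected windows of Tcra lay in 2 stretches in the middle of the V array. The 5 windows of chr14:53440001-53640000 were positive in 0, 4, 1, 0 and 3 libraries, and the 5 windows of chr14:53760001-53960000 in 2, 1, 1, 1 and 2. The 8 of these found at least once were called lower, and the others could not be tested. The 3 windows between these stretches, the first of them holding Trav16d-dv11, were positive in 34, 20 and 30 libraries, and of them the one with 20 was called lower. The remaining calls of lower detection were chr14:53960001-54000000, next to the second stretch (25 libraries), and chr14:54360001-54400000 with Gm13896, apart from the others (22 libraries). The unique share was 0.7% to 7.1% in the 10 least detected windows and 18.3% to 39.5% in the 3 between. Of the 622 other autosomal windows with a unique share under 5%, 89.4% were positive in fewer than 25 libraries. The most detected Tcra window, chr14:54160001-54200000 with 3 V segments, was positive in 61 libraries, 8.61 points above its neighbourhood (SE 2.28, adjusted permutation p = 0.00650). The window of Trac, the constant segment of the alpha chain, was positive in 38 libraries and did not pass the test (-0.918 points, adjusted p = 0.866).

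Igh held both low and high windows. The first 22 of its windows had 6 called lower and none higher, the next 21 had 2 lower and 4 higher, and the last 22 had 4 lower and 6 higher. The highest, chr12:116840001-116880000 with the V segments Ighv1-67 and Gm16708, was positive in 93 libraries, 17.1 points above its neighbourhood (SE 2.45, adjusted permutation p = 0.000573). The lowest, chr12:116320001-116360000 with the V segment Gm16829, was positive in 11 libraries, a difference of -16.3 points (SE 1.58, adjusted p = 0.000573). Both kept their direction in 11 of 11 experiments, but they were picked by detection in these same libraries, so this is a description. The window with the 6 identical D signals was positive in 38 libraries and was called lower (-6.32 points, adjusted p = 0.0468), and that of Ighm, the mu constant segment, was positive in 49 libraries and was not called (-1.90, adjusted p = 0.684). The number of positive libraries varied over the Igh windows with an SD of 15.5, against 6.50 and 4.85 in its left and right flank, at percentile 95.1 of autosomal intervals of that length. The same SD was 16.3 in Tcra, 9.35 in Igk and 5.07 in Tcrb. At like composition, the 10 high Igh windows ranged from 9.37 to 18.8 points and the 12 low ones from -8.49 to 2.61, with 11 of the 12 below 0, values given as a description of windows chosen by their detection.

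Most Igk windows were level, and 76 of 81 lay within 10 libraries of the median of 48. The highest were 2 neighbouring windows near the left end, chr6:67600001-67640000, which holds no annotated segment, and chr6:67640001-67680000. They were positive in 103 and 94 libraries and were higher in 11 of 11 experiments, by 20.5 (SE 2.90) and 16.9 points (SE 2.89) over all libraries, each with an adjusted permutation p of 0.000573. Their direction by experiment is a description, since they were picked by detection in these same libraries. The least detected Igk window, chr6:68560001-68600000 with Igkv10-96, was positive in 34 libraries (-7.65 points, SE 1.99, adjusted p = 0.00594). The other low window, chr6:69200001-69240000, was positive in 36 libraries (-6.78 points, SE 1.92, adjusted p = 0.0132), and chr6:68160001-68200000, positive in 60, was not called (adjusted p = 0.501). The window of Igkc, the kappa constant segment, with all 5 J segments, was positive in 49 libraries (-2.06 points, adjusted p = 0.669).

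The window of Trbv1, chr6:40840001-40880000, was positive in 53 libraries and was not called (-0.158 points, adjusted permutation p = 0.982). Tcrb held 1 called window, chr6:40920001-40960000, which carries Gm2663 and no segment and has a unique share of 23.6%. It was positive in 34 libraries (-7.63 points, SE 1.97, adjusted permutation p = 0.00540). The last window of the locus holds both constant segments, Trbc1 and Trbc2, with the D and J segments. It was positive in 56 libraries, which did not differ from its neighbourhood by the test (2.06 points, adjusted p = 0.674).

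**Figure D2:**
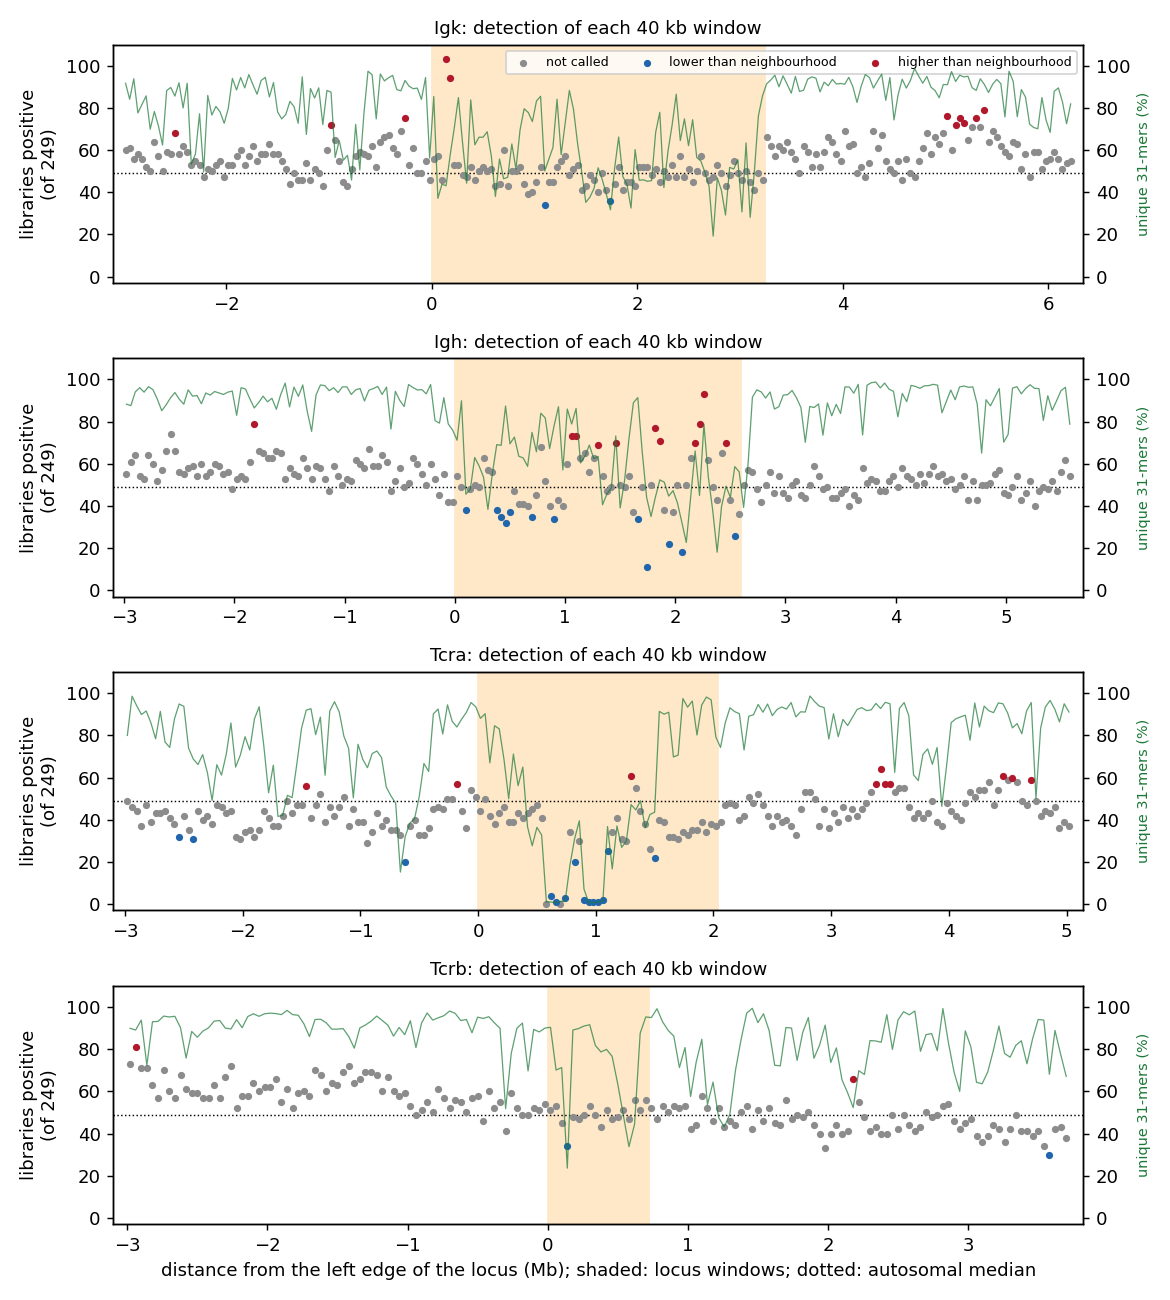
Number of libraries positive (points, left axis) and unique share (green line, right axis, %) of each 40 kb window in the loci (shaded) and their flanks, by distance from the left edge of the locus (Mb), with called windows in colour and the autosomal median of 49 dotted. Detection falls to 0 to 4 libraries in 10 Tcra windows of low unique share, and Igh spans 11 to 93 libraries.

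The second comparison asked whether the windows of a locus were found together more often than flank windows at the same distance. Linkage was measured as D′, the normalised linkage disequilibrium used by GAMtools, which is 0 for independent windows and 1 when the rarer window is found only with the other. No locus differed from its flanks by the test. The 200 windows positive in at least 25 libraries entered, all 81 of Igk, 62 of Igh, 39 of Tcra and all 18 of Tcrb. For Tcra this left 57.7% of the possible pairs.

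Over pairs 80 kb to 2 Mb apart, the mean D′ was 0.408 in Igh and 0.359 in its flanks, a difference of 0.0490 (SE 0.0342, 95% interval -0.0180 to 0.116), with a permutation p of 0.155 and an adjusted p of 0.999. Igh stood at percentile 93.6 of the 878 intervals of its length. With windows positive in at least 40 libraries, the Igh difference was 0.0647 (SE 0.0338, permutation p = 0.0564, adjusted p = 0.999, percentile 98.3). With covariance in place of D′ the sign turned for Igh (-0.00145, percentile 38.8), Igk (-0.00544) and Tcrb (-0.00115), and Tcra was at -0.00958 (SE 0.00465, permutation p = 0.0396, adjusted p = 0.352, percentile 6.79). Covariance is not normalised for how often windows are detected, and each locus had a lower mean detection than its flanks. In Igk D′ was 0.354 against 0.346, a difference of 0.00732 (SE 0.0366, interval -0.0645 to 0.0791, adjusted permutation p = 0.997). In Tcra it was 0.381 against 0.407, a difference of -0.0260 (SE 0.0399, interval -0.104 to 0.0523, adjusted permutation p = 0.999), and -0.0560 without the full collection (percentile 5.10), the 1 experiment of 11 in which it was above 0 (0.126). In Tcrb it was 0.444 against 0.431, a difference of 0.0135 (SE 0.0447, interval -0.0740 to 0.101, adjusted permutation p = 0.999). The Tcrb difference fell below 0 without the cresyl violet (-0.00357) or the propidium iodide test (-0.0113), and was 0.0462 without the full collection. Of the intervals as long as Igk, Igh and Tcra 0.0% were called in either direction, and of those as long as Tcrb 0.0% were called lower and 0.0313% higher. At an unadjusted p under 0.05, 3.27% of the Igk-length, 3.42% of the Igh-length, 3.75% of the Tcra-length and 2.57% of the Tcrb-length intervals passed.

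By distance, D′ in Igh fell from 0.564 at 80 to 160 kb to 0.310 at 1400 to 2000 kb, above its flanks (0.523 to 0.261) in each of the 5 distance classes, by 0.0335 to 0.0637 with SEs of 0.0355 to 0.0407. In Igk it fell from 0.499 to 0.280, below the flanks in the 3 shorter classes and above them in the others. Tcra dropped to 0.193 at 1400 to 2000 kb, where its flanks were at 0.287 (difference -0.0932, SE 0.0407). These classes were not tested one by one.

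**Figure D3:**
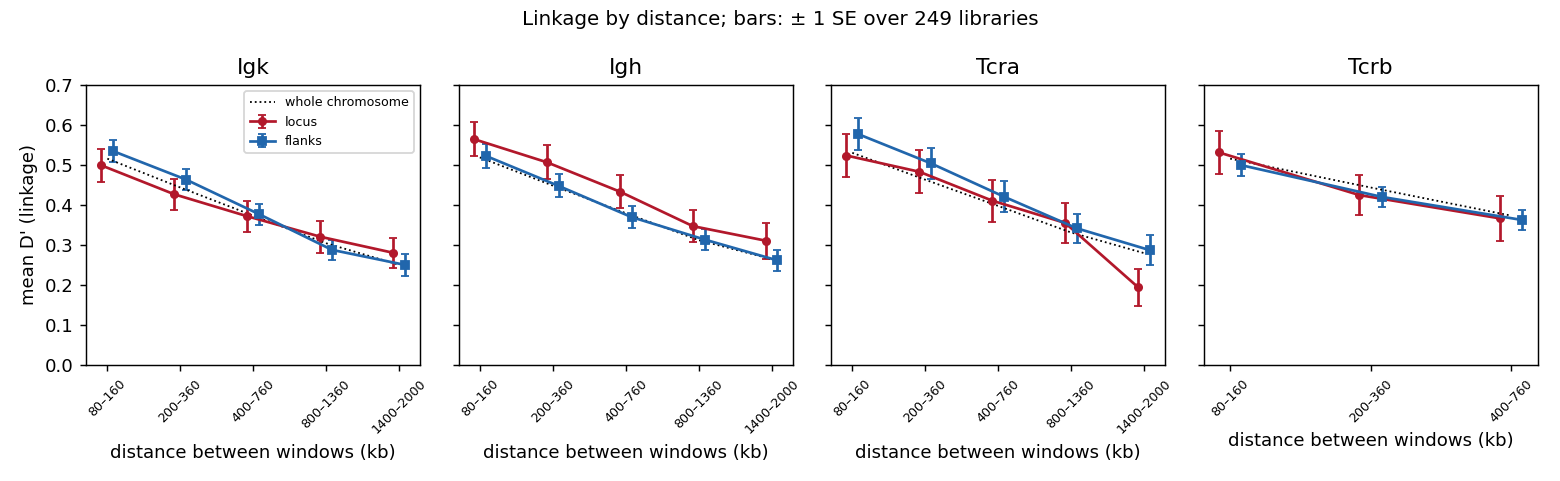
Mean D′ of window pairs in each locus (red), its flanks (blue) and the whole chromosome (dotted) by distance between the windows (kb), with bars of 1 SE over libraries. Locus and flank fall together, Igh lies above its flanks in all 5 classes, and the bars overlap in most classes.

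The constant segments were taken as viewpoints, because the V segments most distant from them lie at the far end of an unrearranged array. The Ighm window had a mean D′ of 0.400 (SE 0.0568) with the 56 usable Igh windows at least 200 kb away, where chromosome 12 averaged 0.308 at the same distances, and 48 of the 56 lay above that average. The Igkc window had 0.286 (SE 0.0489) against 0.273, with 43 of 75 above. The Trac window had 0.295 (SE 0.0592) against 0.348, with 10 of 33 above, and the Trbc2 window 0.442 (SE 0.0632) against 0.404, with 9 of 13 above. All windows of a viewpoint share that viewpoint's libraries, so these counts are descriptions.

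The first and last windows of the loci were found together as follows. In Igk, 3200 kb apart, 18 libraries held both where independence gives 10.3, a D′ of 0.215 (SE 0.0841) against 0.188 for chromosome 6. In Igh, 2560 kb apart, 11 held both where 7.81 were expected, a D′ of 0.113 (SE 0.0904) against 0.227. In Tcra 13 held both where 6.54 were expected (D′ 0.212, SE 0.0892, against 0.260), and in Tcrb 21 where 11.5 were expected (D′ 0.241, SE 0.0794, against 0.355). Each chromosome average lay within 2 SE of the value of its locus.

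The pairs with the highest z-score of D′ within chromosome and distance were picked for that value and are given as descriptions. In Igh both shared the window chr12:116280001-116320000, positive in 49 libraries. It was found with the most detected Igh window, 560 kb away, in 46 libraries where 18.3 were expected (D′ 0.902, z 5.47), and with the window before that, 520 kb away, in 45 where 15.5 were expected (D′ 0.880, z 5.23). In Tcra the first pair was chr14:53960001-54000000 with chr14:54160001-54200000, both in 23 libraries where 6.12 were expected (D′ 0.894, z 4.23). In Igk it was chr6:68240001-68280000 with chr6:69880001-69920000, 1640 kb apart, in 32 libraries where 11.4 were expected (D′ 0.533, z 3.27). In Tcrb it was chr6:41080001-41120000 with the Trbc2 window, in 38 where 11.9 were expected (D′ 0.635, z 2.42).

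The called windows were also described by their linkage to neighbours 80 to 400 kb away. All 10 high Igh windows had a mean D′ above the average of the chromosome at those distances, up to 0.737 against 0.470 for chr12:116840001-116880000, and so had 8 of the 9 low Igh windows with linkage values. Igh as a whole lay above chromosome 12 there, at 0.564 against 0.519 for 80 to 160 kb and 0.506 against 0.448 for 200 to 360 kb. The 2 high Igk windows had 0.453 and 0.426, below the chromosome average of 0.464. The difference between Igh and Igk in this was not tested.

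**Figure D4:**
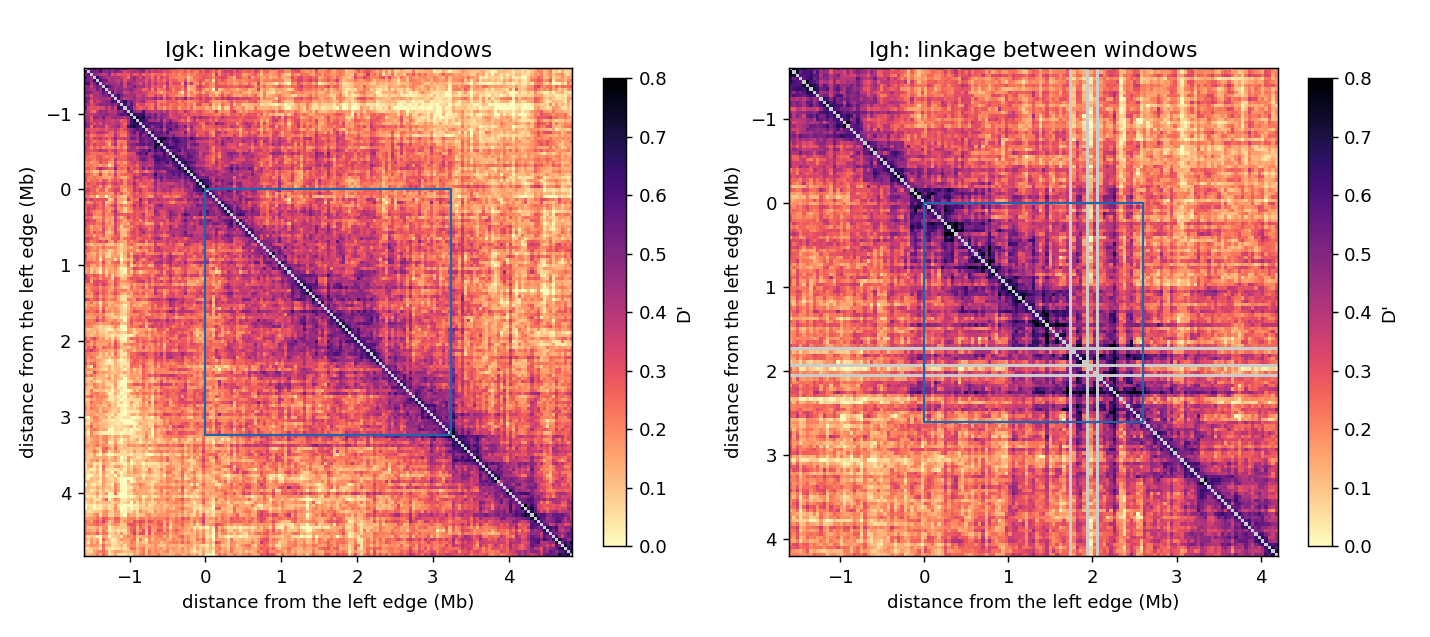
D′ between all 40 kb windows (colour scale 0 to 0.8) in and around Igk and Igh, by distance from the left edge (Mb), with the locus boxed and windows positive in fewer than 25 libraries in grey. Igh shows dark blocks near its right end around the window positive in 93 libraries, and Igk a paler, even band.

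The third comparison asked where borders lay. The insulation score is the mean D′ across a position in a square of 400 kb, and a border is a local minimum of it. Borders lay inside every locus at this setting, none at any of the 8 locus edges, and the nearest that passed a test of its dip lay just outside the distal end of Igh. There were 2 borders inside Igk, 3 inside Igh, 1 inside Tcra and 1 inside Tcrb, or 0.926 per Mb scored, against 30 in the flanks (1.25 per Mb) and 1.05 per Mb over all autosomes, where 4.2% of positions were borders. In Tcra only 28 of 50 positions could be scored. The counts depended on the setting, from 1 to 4 in Igk, 0 to 6 in Igh and 0 to 3 in Tcra, and were 0 for Tcra with squares of 800 kb and for Igh and Tcra with windows positive in at least 40 libraries.

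The distal Igh border lay at position 117280000 of chromosome 12, 80 kb beyond the last member window. Border positions are edges of 40 kb windows, so shorter distances are not resolved. This border was 41.3 kb past Ighv1-85, the last V segment. It lay at the left edge of the window in which Zfp386, a zinc finger protein gene, starts. The score there was 0.342 (SE 0.0475), and the dip below the scores 400 kb to each side was -0.108 (SE 0.0276, permutation p = 0.00012, adjusted p = 0.0169). Of the 57343 positions where a dip could be tested 1.17% were called, and this border was found in 11 of 11 maps that left out 1 experiment. At the other end no border was called at the left edge of Igh, where the score was 0.468 and the dip 0.0337 (SE 0.0295, adjusted permutation p = 0.614).

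The borders inside the loci did not pass the dip test. In Igh they lay at 115080000, 115480000 and 116320000, and the last, beside Gm16829, had the largest dip (-0.0879, SE 0.0336, adjusted permutation p = 0.135) and was found in 11 of 11 maps, where the others had dips of -0.00648 and -0.0108 (adjusted p = 0.952 and 0.919). In Igk they lay at 68040000, beside the V segment Igkv9-120 (dip -0.0584, adjusted p = 0.263), and at 69840000 (-0.0670, adjusted p = 0.230). The Tcrb border at 41040000 lay among Trbv4 to Trbv13-2 (-0.0450, adjusted p = 0.545). The dip of the Tcra border at 54400000 could not be computed, since a neighbouring position had no score.

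The nearest border to the left of Igk lay 120 kb outside it, in the windows of Il12rb2 and Il23r, genes of cytokine receptor subunits (dip -0.0647, adjusted permutation p = 0.249), and that to the right 360 kb outside, beside Thnsl2. Right of Tcrb it lay 120 kb outside, in windows with the calcium channel gene Trpv5 (-0.0383, adjusted permutation p = 0.528). The nearest borders of Tcra lay 480 kb to its left (-0.0705, adjusted p = 0.184) and 360 kb to its right (-0.111, adjusted p = 0.180). The right edge of Tcra, beyond Trac and Dad1, was the opposite of a border, with a score of 0.561 (SE 0.0707) that exceeded those around it by 0.139 (SE 0.0460, percentile 99.9 of all positions), although this did not pass the test (adjusted permutation p = 0.0634).

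**Figure D5:**
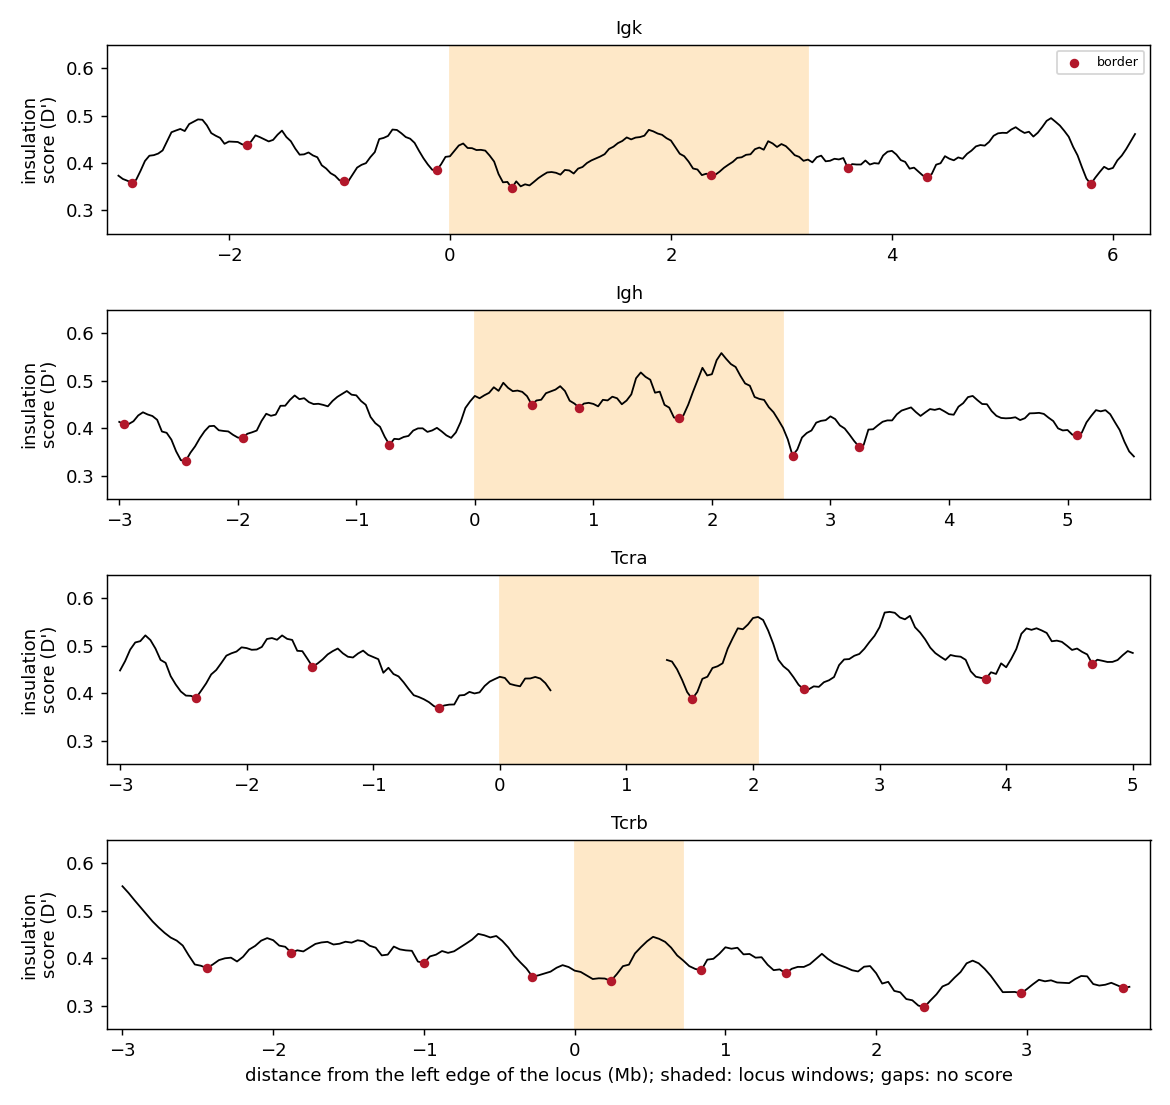
Insulation score (mean D′ in a 400 kb square) by distance from the left edge of each locus (Mb), with locus windows shaded, borders as red points and gaps where no score could be computed. The score falls to 0.342 at the border 80 kb past the right edge of Igh and rises to 0.561 at the right edge of Tcra.

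Loci were also compared with each other, as a description. Igk and Tcrb, on the same chromosome, had a mean D′ of 0.148 (SE 0.0359) where their flanks had 0.118 (SE 0.0176). The other 5 pairs, between chromosomes, ran from -0.0914 (Igh with Tcra, SE 0.0678) to 0.0689 (Igh with Tcrb, SE 0.0474), and each difference from the flanks was within 2 SE.

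The differences did not vary between the 11 experiments by permutation tests of the F statistic (8 tests, adjusted p = 0.988 in each). Tcra lay below its flanks in 11 of 11 experiments, from -10.3 points in the early freezing test to -2.18 in the full collection. Igk lay below in 10 of 11, from -7.76 to 2.07, Igh in 6 of 11, from -7.77 to 1.84, and Tcrb in 7 of 11, from -8.85 to 5.12. The linkage difference was above 0 in 8 experiments for Igk, 7 for Igh, 1 for Tcra and 4 for Tcrb.

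The remaining antigen receptor loci, the lambda light chain (Igl) and T cell receptor gamma (Tcrg) loci, held 6 windows each and were not tested. Igl was positive in 20.1% of libraries per window against 23.4% in its flanks (difference -3.27 points, SE 1.63), and Tcrg in 19.1% against 21.2% (difference -2.12, SE 1.41). Their unique shares, 63.0% and 67.7%, were below those of their flanks as well (83.7% and 83.6%).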

How the data were processed

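The authors aligned reads to mm9 with Bowtie2 2.1, removed duplicates, and called a 40 kb window positive in a library with a fixed threshold of 4 reads. The deposited values are these calls, other than counts: 0 or 1 for each library that passed quality control. How reads with several equal matches were placed is not given in the sources used here. Every column was matched to its library by name, and 0 columns were left unused.

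Here, detection is the percentage of windows positive per library. Locus and flanks were compared within libraries by two-sided sign-flip permutation tests (100000 resamples), with Benjamini-Hochberg adjustment over the locus and all autosomal intervals of the same length, or over all autosomal windows or positions, at a threshold of 0.05. D′ used windows positive in at least 25 libraries, with SEs over libraries. Borders needed a prominence of 0.5 SD. GC content, 31-base words, signals and annotation came from the mm9 genome and its GENCODE annotation. Composition classes were 20 GC quantiles by 4 classes of unique share, split at 0.5, 0.8 and 0.95. Named windows were, per locus, those at both edges, of the constant segment, and most and least detected; all other windows named were chosen after their values were seen. Named pairs were the 2 of highest z-score, and named borders those inside each locus and nearest its edges. The members and lists were chosen with earlier results of these data known. The scripts were tested on simulated data and used Python 3.11.15, numpy 2.4.6, scipy 1.17.1, pandas 2.3.3 and matplotlib 3.10.9.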

Additional observations from a re-analysis of the deposited data

Results flagged for a closer look

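Within the groups of 4 to 10 libraries, the library farthest from the others was compared with Dixon's critical value in 72 tests. It was exceeded in 18, where chance gives about 1 in 20 for normally distributed values. Many libraries held no positive window of a locus, from 39 for Igk to 125 for Tcrb. The excess therefore does not by itself mark unusual libraries. For detection (locus minus flanks, percentage points), Igk stood apart at 31.8 in replicate 4 of the 2 µl proteinase K group and at 27.6 in replicate 3 of protocol A, Igh at 24.4 in replicate 8 of the SYBR Gold test, and Tcrb at -13.1 in replicate 4 of the 1 µl proteinase K group and at 18.2 in replicate 9 of protocol A.

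For linkage (a library's contribution to the D′ difference), Igk stood apart at -1.40 in replicate 1 of the tubes frozen after incubation, at 0.661 in replicate 4 of the 2 µl proteinase K group and at -1.32 in replicate 5 of the 23-cycle group. Igh stood apart at 0.971 in replicate 1 of the unstained cresyl violet group, at -0.565 in replicate 6 of the tubes frozen after incubation, at 1.59 in replicate 9 of protocol A and at 1.58 in replicate 6 of protocol C. Tcra stood apart at -1.23 in replicate 8 of the unstained cresyl violet group, at 1.17 in replicate 5 of the 1 µl proteinase K group and at -0.789 in replicate 4 of protocol A. Tcrb stood apart at 0.755 in replicate 1 of the SYBR Gold test, at 0.590 in replicate 9 of protocol A and at 0.553 in replicate 6 of protocol C. Replicate 9 of protocol A held 72.3% of the Igh and 55.6% of the Tcrb windows, and replicate 4 of the 2 µl group 53.1% of the Igk windows.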

How the results depend on the processing

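Within classes of GC content and unique share, the detection differences of Igk (0.475 points), Igh (2.73) and Tcrb (0.367) turned positive. That of Tcra was -2.16, and none was past the threshold. The lowest class, all unique shares under 0.5, held the 9 Tcra windows under 0.05, which are not alike to the rest of it. Tcra kept its call in windows with a unique share of at least 0.8 (-3.40, adjusted p = 0.0282; Tcrb there -1.80, adjusted p = 0.471) and lost it with windows positive in at least 25 libraries (-2.18), a filter on detection itself, and Igk lost its call with flanks of 1.5 Mb (-2.80). Leaving out 1 experiment gave -3.87 to -2.91 for Igk, with the call lost without the cresyl violet or the early freezing test, and -6.20 to -4.82 for Tcra, whose call held each time, with -1.66 to -0.787 for Igh and -2.04 to -0.775 for Tcrb. With covariance, which is not normalised for detection, in place of D′, the linkage differences were -0.00544 for Igk, -0.00145 for Igh, -0.00115 for Tcrb and -0.00958 for Tcra. Leaving out 1 experiment gave -0.0113 to 0.0462 for Tcrb, below 0 without the cresyl violet (-0.00357) or the propidium iodide test, and -0.0560 to -0.0155 for Tcra, the lowest without the full collection, and 0.000578 to 0.0179 for Igk. With flanks of 1.5 Mb the linkage differences were -0.00608 for Tcra, 0.0163 for Igk, 0.0571 for Igh and 0.00343 for Tcrb. With windows positive in at least 40 libraries they were 0.00750 for Igk, 0.0647 for Igh and 0.00639 for Tcrb. With pairs at least 200 kb apart that of Tcrb was 0.00441. No linkage difference passed the test under any alternative run. With a neighbourhood of 1.5 Mb, 1 Igk, 9 Igh, 10 Tcra and 1 Tcrb windows were called lower, and 2 Igk, 10 Igh and 2 Tcra windows higher. The share called over all autosomal windows is given for 3 Mb only, so these counts are descriptions. Borders inside numbered 4 in Igk, 6 in Igh and 3 in Tcra with squares of 200 kb, and 1, 1 and 0 with squares of 800 kb. At a prominence of 0.25 SD there were 5 in Igh and 2 in Tcra, and with windows positive in at least 40 libraries 0 in both. The causes were not tested. Restriction to windows with a unique share of at least 0.8 was not run for detection in Igk and Igh, where 9 windows each remained, under 25% of the locus, nor for linkage in any locus, and linkage at 40 libraries was not run for Tcra. The number of libraries limits D′ for windows found in few of them, and the table holds no read depth.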
